A study of Mus musculus with 12 samples.

Results

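Hepatocytes that carry a double amino acid change in the protein AEG-1 were compared with wild-type hepatocytes while both were exposed to CP775146, a synthetic ligand that activates the fatty acid sensor PPAR-alpha. The comparison rests on 3 treated knock-in libraries (AEG-1-L24K/L25H) and 3 treated wild-type libraries (AEG-1-WT), which are 6 of the 12 libraries of the series. All genes that passed a filter on low counts enter it, 15664 of the 46983 annotated genes in the files. The mice were C57BL/6/J, the change was made with CRISPR/Cas9, and matings of heterozygous parents gave both genotypes as littermates fed regular chow. Primary hepatocytes from these mice received 2.5 µM CP775146 for 24 h. The labels name no other agent for either group, and the matching libraries of the remaining 6 are labelled untreated, with no vehicle named. The labels state neither age nor sex of the donors, nor whether libraries 1 to 3 of a group are different animals or cultures. The p-values below therefore measure the spread between libraries within a group, pooled over all 12 libraries, and that spread may be technical. An effect of genotype cannot be told apart from one of the individual mice or the cell preparation.

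AEG-1 is the product of Mtdh, a gene studied as a driver of liver cancer, liver fat storage and inflammation. Near its amino terminus it holds an LXXLL motif, the short leucine-rich sequence by which many coregulators touch nuclear receptors, and AEG-1 binds the retinoid X receptor (RXR) through it. RXR is the obligate partner of PPAR-alpha. When a ligand occupies PPAR-alpha, the pair recruits coactivators and raises transcription of genes for fatty acid uptake, oxidation in peroxisomes and mitochondria, ketone body production and lipid droplet turnover in hepatocytes. AEG-1 is also known for links to NF-kappaB signalling. The changed codons lie in exon 1 of Mtdh, in the coding sequence, on the plus strand of chromosome 15 (GRCm38). The reference sequence around them is shown because these codons define the genotypes by which the groups are labelled. Codons 17 to 32, at chr15:34083084-34083131, read as follows, with codons 24 and 25 in capitals, both leucine codons at 34083105 to 34083110.
Mtdh codons 17 to 32: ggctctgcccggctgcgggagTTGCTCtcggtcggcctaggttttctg
Codon 21, the first leucine of the motif, lies 3 codons before the capitals. The files hold counts per gene, so the altered codons themselves could not be read from them.

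The level of a gene is given as CPM, a gene's counts per 1000000 counts of the library, scaled with edgeR's TMM factors, always for libraries 1, 2 and 3 in that order. A difference is the log2 ratio of knock-in over wild type with its standard error (SE), from edgeR's quasi-likelihood test, and "adjusted p" is that test's p after the Benjamini-Hochberg correction over all 15664 genes. A gene is said to rise, fall, or be higher or lower where its adjusted p was below 0.05. Genes that are named because 5 or fewer members of a list passed in a direction were chosen after their values were seen. The 6 treated libraries held 29350213 to 34885451 assigned counts, and 3 counts, a practical floor, equal 0.086 to 0.102 CPM. Variation between libraries of a group was smaller in the treated knock-in, with a coefficient of biological variation of 2.61%, than in the treated wild type, with 5.33%. The test shares 1 estimate of spread over all groups and does not model that inequality. Alb alone held 6.55% to 6.83% of all assigned counts among knock-in libraries against 9.84% to 10.21% among wild-type ones, and a scaling by total counts moved the median log2 difference of all genes from −0.01 to 0.12. Summed levels of defining markers, before TMM scaling, were 82318 to 85204 CPM against 116702 to 120691 CPM for hepatocytes, 115 to 131 against 175 to 181 for macrophages, 68.2 to 74.2 against 118 to 125 for endothelial cells, and 86.1 to 96.6 against 162 to 196 for stellate cells and fibroblasts. These sums rest on a few abundant genes, Alb among the hepatocyte markers, Cd68 among the macrophage ones, Flt1 and Stab2 among the endothelial ones and Reln among the stellate ones. By member, 2 of 8 hepatocyte markers lay above 0 (median −0.4) and 11 of 13 macrophage markers (median 0.38). So did 5 of 13 endothelial (median −0.05) and 3 of 10 stellate markers (median −0.29). Neutrophil and lymphocyte markers summed to at most 0.32 CPM in any treated library, with Mpo, Elane, Cd3d, Cd8a and Ms4a1 at 0. In bulk RNA, fewer cells of a type and less RNA per cell cannot be told apart. Wild-type replicate 1 stood apart from the other wild-type libraries for interferon-stimulated genes, as described with them.

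Genotype separated the treated libraries over much of the transcriptome, mostly by small amounts. Under CP775146, 6665 genes differed, 42.5% of those tested, with 3218 higher in the knock-in (20.5%) and 3447 lower (22%). Differences of at least 2-fold were fewer, at 512 genes higher (3.27%) and 400 lower (2.55%). The median size among called genes was 0.35 for the higher and 0.34 for the lower on the log2 scale, and 1481 of the higher and 1633 of the lower differed by less than 1.25-fold. The 2 groups of libraries did not overlap for 3092 of the higher and 3301 of the lower genes, against 8022 of all tested genes (51.2%). The share called grew with level, from 17.8% of genes below 1 CPM to 37.6% at 1 to 10, 50.3% at 10 to 100 and 62.7% at 100 CPM and over. The 42.5% set beside gene lists below is therefore not matched to the level of their members. With scaling by total counts the split was 5949 higher and 1867 lower, so that 76.1% of called genes were higher in place of 48.3%. Directions of small differences therefore depend on the scaling, and are marked where a list turns. A tested minimum of 1.5-fold kept 504 genes higher and 429 lower, with 36 mitosis and 6 interferon-stimulated genes higher and no member of the coregulator, mitochondrial oxidation, respiratory chain or ribosomal lists.

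Most of the genotype differences under the agonist had the same sign without it. Of the 3218 higher genes, 2050 were also higher in untreated knock-in cells, 28 were lower and 1140 passed in neither direction. Of the 3447 lower genes, 2113 were also lower, 60 were higher and 1274 did not pass. Over all 15664 genes, the untreated comparison called 2883 higher and 2918 lower in the knock-in. It shares no library with the treated comparison. A direct test of the genotype by treatment interaction called 1113 genes (7.11%), 435 with a more positive and 678 with a more negative genotype difference under CP775146. Total-count scaling turned that majority, at 663 positive and 519 negative, and the positive ones fell to 251 without treated knock-in replicate 1 and to 270 and 271 without untreated knock-in replicates 1 and 2.

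**Figure D1:**
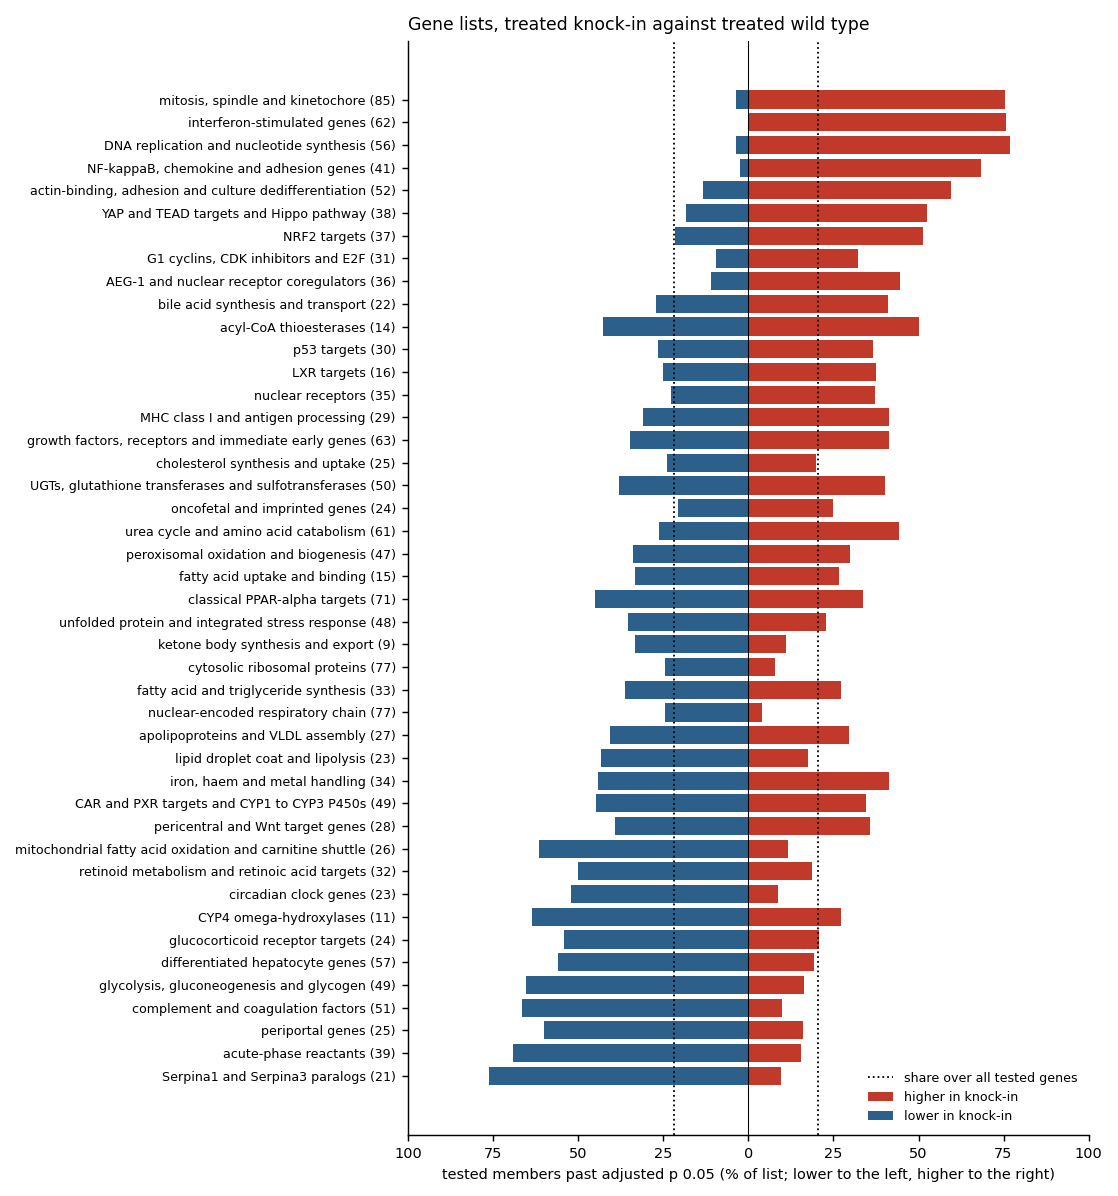
Share of the tested members of each gene list that were higher (red, right) or lower (blue, left) in the treated knock-in at adjusted p below 0.05, in percent, with the number of members tested in parentheses and lists ordered by median log2 difference. Dotted lines mark 20.5% and 22%, the shares over all 15664 genes. Mitosis, interferon-stimulated and DNA replication genes extend farthest to the right, and Serpina paralogs, acute-phase and complement and coagulation genes farthest to the left.

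Mtdh itself (ENSMUSG00000022255, chromosome 15, 34082694 to 34142386, plus strand) was measured at 191, 190.0 and 197 CPM in the knock-in libraries and 177, 186 and 181 CPM in the wild-type libraries. The highest wild-type library lay below the lowest knock-in library, but the difference of 0.09 ± 0.039 did not pass (adjusted p = 0.0718). It passed in 7 of the 16 alternatives, among them total-count scaling at 0.22 and leaving out wild-type replicate 2 at 0.11.

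Among the receptors, PPAR-alpha was lower and the RXR subtypes moved unevenly. Ppara, which encodes the target of CP775146, was at 89.7, 96.2 and 95.6 CPM in the knock-in libraries and 121, 136 and 124 CPM in the wild-type libraries, a difference of −0.44 ± 0.044, adjusted p = 2.11e-09. The groups did not overlap. Ppard, the gene of the widely expressed PPAR-delta, was also lower, at 31.6, 30.2 and 30 against 43.3, 49.3 and 44.8 CPM (−0.58 ± 0.055, adjusted p = 5.12e-10). Rxra, the main hepatocyte RXR, was higher at 242, 234 and 244 CPM in the knock-in libraries and 208, 203 and 218 CPM in the wild-type libraries (0.2 ± 0.037, adjusted p = 5.91e-05), and in untreated cells the difference did not pass (−0.04, adjusted p = 0.448), with an interaction of 0.24 ± 0.052, adjusted p = 0.00392. Rxrg, a minor subtype here, was higher at 11.1, 10.5 and 11 against 6.47, 6.37 and 5.99 CPM (0.79 ± 0.093). Rxrb fell by a small amount (−0.17 ± 0.053, adjusted p = 0.00999), a call that ended under total-count scaling and when knock-in replicate 2, wild-type replicate 1 or wild-type replicate 3 was left out. Pparg (−0.09 ± 0.058, adjusted p = 0.215), Nr1h2 (−0.12 ± 0.072, 0.213), Nr1h4 (0.06 ± 0.048, 0.383) and Hnf4a (0.04 ± 0.035, 0.389) did not pass, and their groups overlapped. Those 4 encode PPAR-gamma, the liver X receptor LXR-beta, the bile acid receptor FXR and the hepatocyte factor HNF4-alpha. Nr1h3, which encodes LXR-alpha, was higher (0.28 ± 0.048, adjusted p = 2.31e-05), as was Nr5a2, a regulator of bile acid synthesis (0.6 ± 0.052, adjusted p = 1.05e-10). Nr3c1, the glucocorticoid receptor, was lower (−0.52 ± 0.044, adjusted p = 4.62e-11). Over all 35 nuclear receptors tested, 13 were higher and 8 lower, with a median of 0.04 against −0.01 for all genes, and 19 and 4 under total-count scaling.

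Coregulators and known AEG-1 partners shifted slightly upward. Of 36 tested, 16 were higher and 4 lower (Ncoa4, Nrip1, Med13 and Zbtb16), with a median of 0.13 and no difference of 2-fold. Without wild-type replicate 3, 10 were higher, and under total-count scaling 26 were higher and 1 lower. Snd1, which encodes a nuclease that binds AEG-1, was at 246, 239 and 241 CPM in the knock-in libraries and 199, 209 and 205 CPM in the wild-type libraries (0.24 ± 0.037, adjusted p = 3.81e-06). Ncoa3, a p160 coactivator, stood at 50, 48 and 48.9 against 38.8, 39.2 and 38.9 CPM (0.33 ± 0.047). Kat2a, a histone acetyltransferase, rose by a similar amount (0.35 ± 0.044), and Med13 of the Mediator kinase module fell (−0.47 ± 0.059, adjusted p = 1.58e-06).

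The classical targets of PPAR-alpha did not move in 1 direction. Of 71 tested, 24 were higher and 32 lower with a median of 0, and under total-count scaling the majority turned to 36 higher and 23 lower with a median of 0.14. In all 78.9% were called, against 42.5% of all genes. That baseline is not matched for level. Of the 71 targets, 66 passed the 5 CPM filter, and among all genes at 100 CPM and over 62.7% were called. In untreated cells 43 were higher and 15 lower (median 0.26), against 2883 and 2918 of all 15664 genes. The interaction was positive for 8 and negative for 39, against 435 and 678 of all genes, counted with TMM scaling only.

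Cd36 (chromosome 5, 17781690 to 17888801, minus strand), the fatty acid translocase, had the largest rise among these targets. It was measured at 1904, 1770 and 1932 CPM in the knock-in libraries and 680.4, 728 and 692 CPM in the wild-type libraries, and every knock-in library was more than 2-fold above every wild-type library (1.42 ± 0.07, adjusted p = 1.3e-09). The genotype difference was larger without agonist, at 558, 562 and 569 CPM against 70.7, 64.2 and 84.8 CPM (2.94), and the interaction was −1.52 ± 0.1, adjusted p = 8.12e-07. Ehhadh (chromosome 16, 21761287 to 21787844, minus strand), the peroxisomal bifunctional enzyme and a standard readout of PPAR-alpha activation, was at 5078, 5138 and 5255 CPM in the knock-in libraries and 3819, 3873 and 4001 CPM in the wild-type libraries. Its groups did not overlap (0.4 ± 0.036, adjusted p = 1.82e-10), and the untreated difference was alike at 0.39, from means of only 68.7 and 52.5 CPM (n = 3 each). The interaction for Ehhadh was 0.02 (adjusted p = 0.918). Vnn1, a pantetheinase induced by PPAR-alpha, was higher at 226, 218 and 241 CPM in the knock-in libraries and 122, 122 and 121 CPM in the wild-type libraries (0.91 ± 0.049, adjusted p = 1.67e-14). Fgf21, the fasting hormone, rose to 15.6, 12.5 and 15.7 from 7.52, 7.25 and 7.73 CPM (0.96 ± 0.098). Gpd1, a glycerol phosphate dehydrogenase, was also higher (0.49 ± 0.037).

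Other targets were lower in the knock-in. Pdk4, the kinase that shuts off pyruvate dehydrogenase, was at 471, 475 and 483 CPM in the knock-in libraries and 616, 632 and 669.7 CPM in the wild-type libraries (−0.42 ± 0.04, adjusted p = 5.67e-10). In untreated cells the Pdk4 difference did not pass (0.02, adjusted p = 0.807), and the interaction was −0.45 ± 0.07, adjusted p = 7.71e-05. Plin4, a lipid droplet coat protein, fell to 49.8, 59.5 and 53 from 99.2, 96.7 and 97.4 CPM (−0.85 ± 0.053). Txnip, a glucose-responsive inhibitor of thioredoxin, was lower (−0.78 ± 0.048), with 19.4% of its length shared with an overlapping gene. Cidea, which fuses lipid droplets, was at only 0.984, 1.5 and 1.58 CPM in the knock-in libraries and 3.02, 3.3 and 4.72 CPM in the wild-type libraries (−1.43 ± 0.22, adjusted p = 6.36e-06). Its groups did not overlap. Fbp2, a fructose bisphosphatase isoform, was lower (−0.43 ± 0.045, adjusted p = 3.83e-09) although it had been higher without agonist (0.96).

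Acot1, a cytosolic thioesterase, showed 498, 474 and 493 CPM in the knock-in libraries and 425, 452 and 475 CPM in the wild-type libraries, with overlap and a small difference (0.12 ± 0.043, adjusted p = 0.0298) that ended without knock-in replicate 1 or 3 or wild-type replicate 1. The same gene had differed by 1.93 without agonist.

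Mitochondrial fatty acid oxidation leaned lower. Of 26 tested members, 16 were lower and 3, Cpt1a, Hadh and Eci1, higher (73.1% called, median −0.18), and under total-count scaling 12 were lower and 6 higher (median −0.05). Without knock-in replicate 3, 1 member was higher. In untreated cells the order was the reverse, with 16 higher and 3 lower (median 0.18), against 2883 and 2918 of all 15664 genes. A negative interaction was called for 20 members and a positive one for none, against 678 and 435 of all genes. Interactions of this list were counted with TMM scaling only. Hadha, the alpha subunit of the trifunctional protein, was at 1295, 1316 and 1342 CPM in the knock-in libraries and 1625, 1655 and 1724 CPM in the wild-type libraries (−0.34 ± 0.035, adjusted p = 2.39e-09). Without agonist it had been higher (0.14), with an interaction of −0.48 ± 0.05, adjusted p = 1.27e-07. Acadm, the medium-chain acyl-CoA dehydrogenase, was at 403, 405 and 422 against 492, 510.0 and 544 CPM (−0.33 ± 0.042). Acaa2, the mitochondrial thiolase, fell to 649, 646 and 679.8 from 932, 909 and 1015 CPM (−0.53 ± 0.04), and Acad11, an acyl-CoA dehydrogenase, fell as well (−0.44 ± 0.039). Cpt1a, the gate of the carnitine shuttle, was an exception at 346, 318 and 323 CPM in the knock-in libraries and 265, 270.0 and 252 CPM in the wild-type libraries (0.32 ± 0.044, adjusted p = 5.66e-07). Its genotype difference was also smaller under agonist than without (0.64 untreated, interaction −0.31 ± 0.064, adjusted p = 0.0018). None of these members differed by 2-fold.

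**Figure D2:**
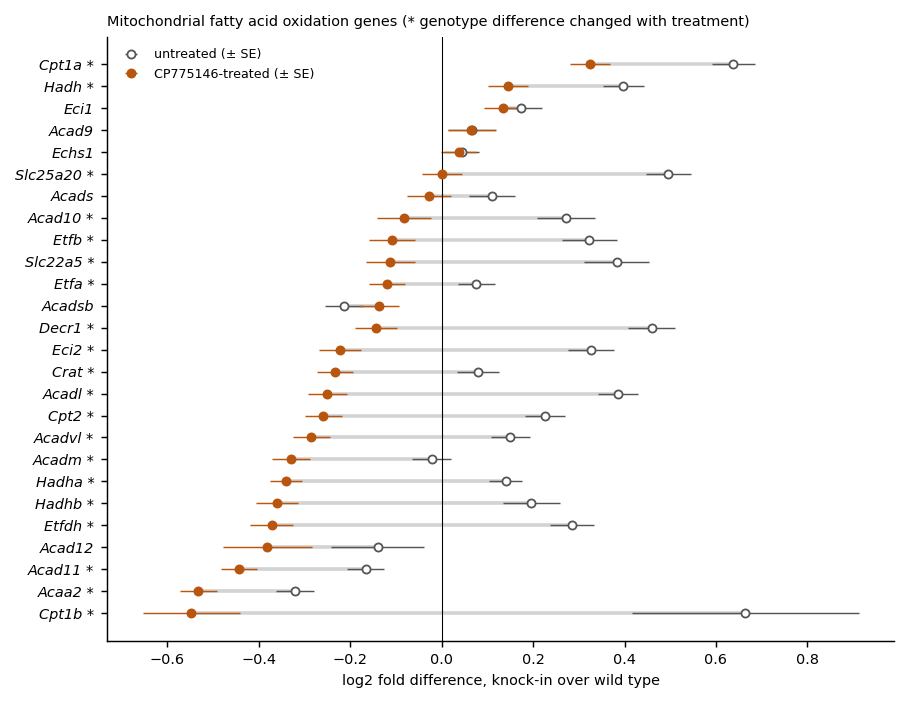
Log2 difference (knock-in over wild type, ± SE) of each of the 26 tested genes of mitochondrial fatty acid oxidation, without agonist (open circles) and with CP775146 (filled). The grey bar joins both values of a gene, and an asterisk marks an interaction at adjusted p below 0.05. Most filled circles lie left of 0 and left of their open circles.

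Peroxisomal genes split. Of 47, 14 were higher and 16 lower (median 0), a balance that turned to 24 higher and 5 lower under total-count scaling. Enzymes were among the higher members, such as Acox2, the oxidase of branched chains and bile acid precursors, at 305, 314 and 309 CPM in the knock-in libraries and 224, 223 and 222 CPM in the wild-type libraries (0.47 ± 0.037, adjusted p = 9.89e-12). Slc25a17, a peroxisomal cofactor carrier, was at 87.6, 88.7 and 88.4 against 60.2, 62.4 and 61 CPM (0.53 ± 0.04). Pex11a, which drives peroxisome division, fell to 341, 342 and 349.7 from 444, 452 and 492 CPM (−0.43 ± 0.038). The omega-hydroxylases of the CYP4 family had 3 members higher, Cyp4a14, Cyp4a31 and Cyp4b1, and 7 lower of 11. Cyp4a14 was at 3037, 2868 and 3167 CPM in the knock-in libraries and 2603, 2787 and 2836 CPM in the wild-type libraries (0.14 ± 0.042, adjusted p = 0.00758), a call that ended without knock-in replicate 3. Cyp4a10 was at 664, 637 and 674 against 769.5, 758 and 798 CPM (−0.23 ± 0.048, adjusted p = 0.000305), and total-count scaling ended that call. In untreated cells Cyp4a10 stood farther below 0, at −1.05, and Cyp4a14 had the opposite sign, at −0.43. Their interactions were 0.82 ± 0.077, adjusted p = 1.21e-07 and 0.57 ± 0.062, adjusted p = 2.79e-07. Reads of these close paralogs may be assigned unevenly. Cyp4b1, a less related member, rose at low level, 10.3, 10.1 and 12.8 against 4.67, 4.49 and 5.17 CPM (1.22 ± 0.1).

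Ketone body genes had 1 member higher and 3 lower of 9, a share called of 44.4%, close to the 42.5% of all genes, which turned to 5 higher under total-count scaling and 2 higher with voom, the replicate block or the 6 treated libraries alone. Bdh1, which makes beta-hydroxybutyrate, was higher (0.83 ± 0.086, adjusted p = 3.37e-09). The exporters Slc16a1 (−0.28 ± 0.036) and Slc16a7 (−0.35 ± 0.05) were lower. Acyl-CoA thioesterases split at 7 higher and 6 lower of 14, and 4 and 5 without knock-in replicate 3 or wild-type replicate 1, and 8 and 3 under total-count scaling, with Acot12, a cytosolic acetyl-CoA hydrolase, lower at 673, 688 and 683 against 850.4, 915 and 910.4 CPM (−0.39 ± 0.037). Uptake and binding genes had 4 higher (Cd36, Fabp2, Acsl4 and Acsl5) and 5 lower (Fabp5, Slc27a5, Slc27a1, Acsl1 and Slc27a4) of 15, turning to 7 and 4 under total-count scaling. Beside Cd36, the intestinal-type binding protein Fabp2 rose (1.28 ± 0.084, adjusted p = 1.99e-13), and Acsl1, the main hepatic acyl-CoA synthetase, was lower at 577, 556 and 581 CPM in the knock-in libraries and 686, 719.5 and 745 CPM in the wild-type libraries (−0.33 ± 0.037). Lipid droplet genes had 4 higher (Pnpla3, Hsd17b11, Abhd5 and Plin2) and 10 lower of 23, which total-count scaling turned to 11 and 7 and leaving out wild-type replicate 3 to 7 and 8. Hsd17b13, a droplet protein linked to fatty liver, was at 648, 686 and 684 CPM in the knock-in libraries and 1229, 1217 and 1295 CPM in the wild-type libraries, without overlap (−0.89 ± 0.036, adjusted p = 5.26e-18). Its neighbour in the genome and relative Hsd17b11 went the other way (0.45 ± 0.044).

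Genes of lipid synthesis showed small and mixed differences. Fatty acid and triglyceride synthesis had 9 higher and 12 lower of 33, and 17 and 7 under total-count scaling. Scd2, a desaturase, was higher at 166, 154 and 161 against 92.4, 94.6 and 85.8 CPM (0.82 ± 0.043, adjusted p = 2.1e-15). Insig2, which holds the SREBP complex in the endoplasmic reticulum, was lower at 417, 433 and 425 CPM in the knock-in libraries and 702, 706 and 733 CPM in the wild-type libraries (−0.75 ± 0.036, adjusted p = 2.5e-16). Lpin1, a phosphatidate phosphatase, fell to 91.4, 93.4 and 95 from 159, 174 and 173 CPM (−0.85 ± 0.048). Cholesterol synthesis and uptake had 5 higher, among them Hmgcs1, and 6 lower of 25, a share called of 44.0%, close to the 42.5% of all genes, and 14 and 4 under total-count scaling. Sqle (−0.41 ± 0.035) and Lss (−0.41 ± 0.037), which make and close the squalene epoxide, fell. LXR targets had 6 higher and 4 lower (Mylip, Apoe, Abcg8 and Smpdl3a) of 16, including Lpl, the lipoprotein lipase, higher (1.08 ± 0.1, adjusted p = 9.12e-10) and Apoe lower at 5471, 5394 and 5458 CPM in the knock-in libraries and 7400, 6935 and 7889 CPM in the wild-type libraries (−0.45 ± 0.042, adjusted p = 4.35e-10). With DESeq2 2 of the LXR targets were lower, and with total-count scaling 1.

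Bile acid genes counted 9 higher and 6 lower of 22. Abcc4, a basolateral exporter, was at 82.9, 86.1 and 76.3 CPM in the knock-in libraries and 28.2, 29.7 and 25.3 CPM in the wild-type libraries, 2.94-fold higher (1.56 ± 0.059, adjusted p = 1.44e-17). Slco1a1, a sinusoidal uptake carrier that is male-biased in mouse liver, fell to 1.75, 2.54 and 1.91 from 9.33, 12.3 and 10.9 CPM (−2.38 ± 0.13, adjusted p = 8.44e-15). Both separated the groups fully. Apolipoprotein and VLDL assembly genes had 8 higher and 11 lower of 27, and 11 each way under total-count scaling. Apob, the structural protein of VLDL, was at 6131, 5802 and 6022 CPM in the knock-in libraries and 4571, 4922 and 3974 CPM in the wild-type libraries (0.41 ± 0.054, adjusted p = 2.36e-06). Lipc, the hepatic lipase, was lower at 77.3, 78.1 and 77.2 against 149, 142 and 149.9 CPM (−0.92 ± 0.04), and Apoa4 was lower at 2625, 2704 and 2718 against 4556, 4087 and 4989 CPM (−0.76 ± 0.051), with 34.8% of its length overlapped by another gene.

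Drug metabolism split within families. Cytochromes of CYP1 to CYP3 with CAR and PXR targets had 17 higher and 22 lower of 49, and 18 and 14 under total-count scaling. Cyp2e1, the ethanol-inducible P450, was at 131, 137 and 135 CPM in the knock-in libraries and 397, 416 and 433 CPM in the wild-type libraries, a fall that left no overlap (−1.63 ± 0.041, adjusted p = 4.69e-23). Cyp2b10, the standard CAR target, was lower at 607, 598 and 608 CPM in the knock-in libraries and 1015, 988 and 1026 CPM in the wild-type libraries (−0.74 ± 0.035). Cyp2c23 (−1.09 ± 0.046) and Cyp2j5 (−0.95 ± 0.045), epoxygenases of arachidonic acid, were lower too. Conjugating enzymes counted 20 higher and 19 lower of 50, and 25 and 13 under total-count scaling, with 7 higher by at least 2-fold. Sult2a1 (chromosome 7, 13796246 to 13837409, minus strand), a sulfotransferase of steroids and bile acids, was at 27.8, 26.1 and 32.2 CPM in the knock-in libraries and 3.02, 3.78 and 3.38 CPM in the wild-type libraries, far apart between the groups (3.08 ± 0.1, adjusted p = 1.6e-17). Its paralog Sult2a2 rose likewise (2.35 ± 0.12), and reads of these near-identical genes cannot be divided with certainty. Sult1a1, a phenol sulfotransferase, was at 464, 449 and 477 against 247, 229.8 and 245 CPM (0.95 ± 0.043).

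Targets of NRF2, the regulator of the antioxidant response, leaned higher, with 19 higher and 8 lower of 37 (median 0.16), and 27 and 5 under total-count scaling. Gsta2, a glutathione transferase, was at 29, 32.5 and 29.7 CPM in the knock-in libraries and 10.7, 11.2 and 10.1 CPM in the wild-type libraries (1.51 ± 0.069, adjusted p = 6.77e-17). Gsta1 rose from 67.6, 61.8 and 65 to 117, 124 and 123 CPM (0.9 ± 0.046), and Osgin1, an oxidative stress-induced growth inhibitor, rose as well (0.65 ± 0.04). The list's median without agonist was 0.17, with 21 higher and 6 lower.

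Cell cycle genes formed the group with the largest median difference. Of 85 tested genes of mitosis, spindle and kinetochore, 64 were higher and 3 (Cenpp, Ncapd2 and Zwint) lower, and 42 rose by at least 2-fold, with a median of 1.03 against −0.01 for all genes. Under total-count scaling none was lower, without wild-type replicate 3 1 was, and a filter of 5 CPM in 3 libraries, which removed most of these genes, left 13 higher and 2 lower of 23 (median 0.25). DNA replication and nucleotide synthesis had 43 higher and 2 lower of 56 (median 0.43). Both lists had similar medians without agonist, 1.0 and 0.53. Levels of the members named were low. Mki67, the proliferation antigen (chromosome 7, 135689788 to 135716379, minus strand), was at 7.97, 8.49 and 9.12 CPM in the knock-in libraries and 0.854, 0.715 and 0.409 CPM in the wild-type libraries, and no library overlapped (3.67 ± 0.15, adjusted p = 5.74e-18). Its genotype difference was larger than in untreated cells, where the levels were 11.6, 11 and 11.7 and 2.45, 2.56 and 2.58 CPM (interaction 1.49 ± 0.22, adjusted p = 2.57e-05). Top2a, the topoisomerase of mitotic chromosomes, was at 7.62, 5.67 and 7.23 against 1.12, 0.817 and 0.781 CPM (2.9 ± 0.16). Anln, a cytokinesis scaffold, rose from 3.52, 4.15 and 2.98 to 11.1, 10.9 and 11.1 CPM (1.63 ± 0.11, and 2.19 without agonist). Ect2, which activates RhoA at the cleavage furrow, was also higher (1.2 ± 0.073).

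Among replication genes, helicase subunits rose together, Mcm5 at 14.2, 14.5 and 14.7 CPM in the knock-in libraries and 4.86, 5.04 and 4.65 CPM in the wild-type libraries (1.58 ± 0.077, adjusted p = 2.68e-16), Mcm4 by 1.46 and Mcm2 by 1.03. Rrm2, the small subunit of ribonucleotide reductase, went against its list at 23.8, 26.1 and 24 CPM in the knock-in libraries and 48, 51.7 and 54.5 CPM in the wild-type libraries (−1.06 ± 0.063, adjusted p = 2.19e-13). Pola2, named because only 2 members fell, was the other (−0.18 ± 0.069), a call that ended with total-count scaling, DESeq2, voom, no filter, the 6 treated libraries alone and when any knock-in library or wild-type replicate 2 was left out. Cyclins and inhibitors of G1 had 10 higher and 3 lower (Cdkn2d, Cdkn1a and Rb1) of 31, a share called of 41.9%, no more than the 42.5% of all genes, and 18 and 2 under total-count scaling. Ccnd1, cyclin D1, was at 25.6, 24.8 and 26.4 CPM in the knock-in libraries and 6.64, 7.01 and 6.36 CPM in the wild-type libraries (1.94 ± 0.072, adjusted p = 4.94e-19), with 21.3% of its length overlapped by another gene. Ccne1, cyclin E1, rose from 1.94, 1.84 and 1.67 to 6.92, 6.47 and 5.57 CPM (1.79 ± 0.13), and Cdk6 rose (0.82 ± 0.048). Cdkn1a, the p21 inhibitor, was lower at 339, 339 and 343 CPM in the knock-in libraries and 461, 451 and 483 CPM in the wild-type libraries (−0.45 ± 0.036). Targets of p53 counted 11 higher and 8 lower of 30, with Sesn1 (−0.97 ± 0.064) and the stress hormone Gdf15 (−0.66 ± 0.052) lower.

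**Figure D3:**
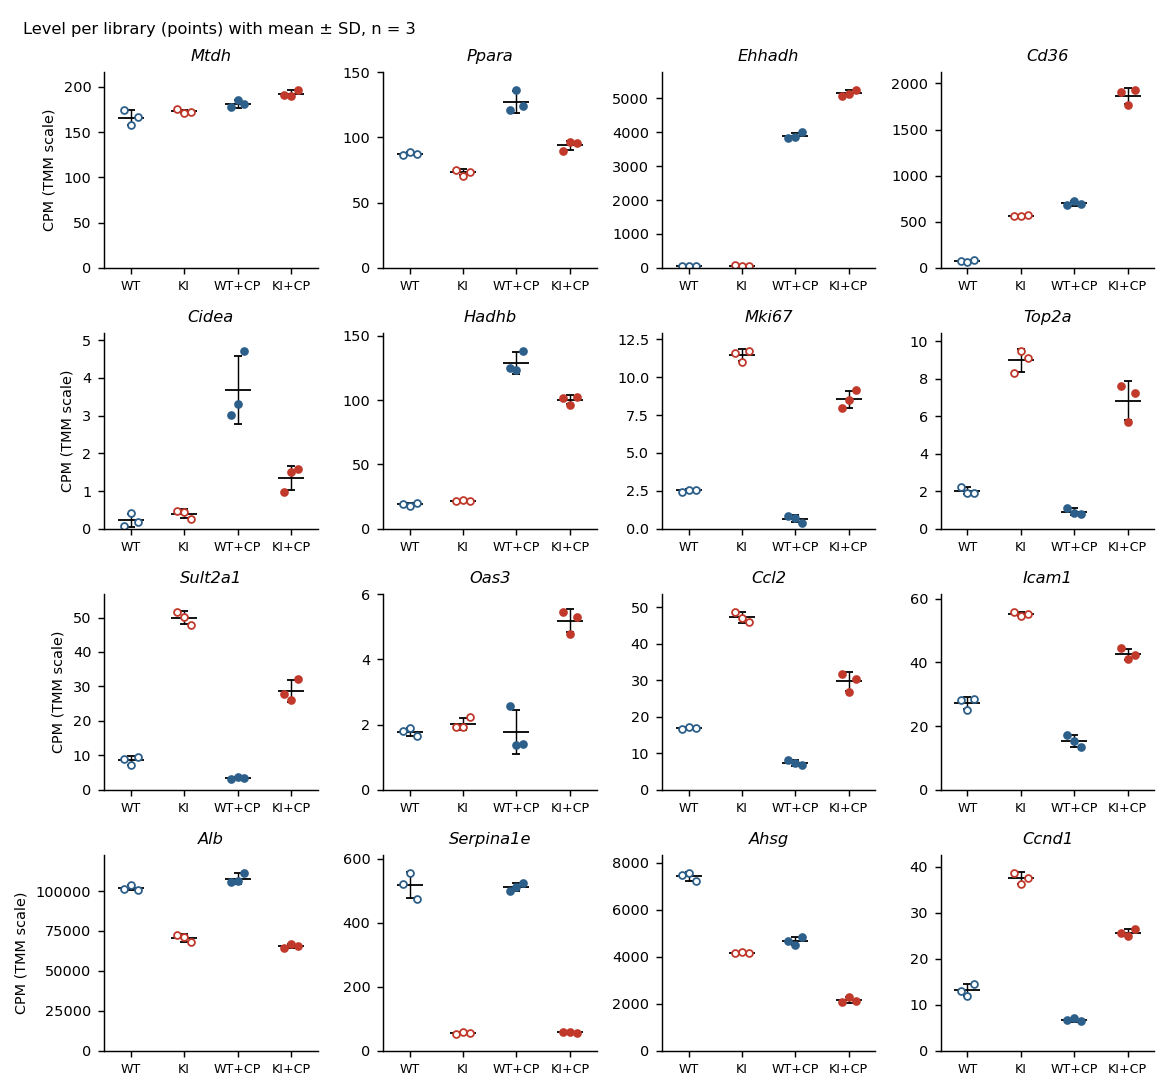
Level in CPM (TMM scale) of 16 genes in every library, wild type in blue and knock-in in red, open circles untreated and filled circles with CP775146 (+CP), with mean ± SD (n = 3). Each panel has its own linear axis from 0. Ehhadh and Cd36 have higher levels with the agonist in both genotypes, Mki67, Top2a and Ccnd1 are higher in the knock-in with and without it, and Alb, Serpina1e and Ahsg are lower.

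Inflammatory genes of the NF-kappaB group were mostly higher. Of 41 chemokine, adhesion and pathway genes, 28 were higher and 1 lower (median 0.4, 0.34 untreated). Ccl2, the monocyte chemokine (chromosome 11, 82035571 to 82037453, plus strand), was at 31.8, 26.9 and 30.4 CPM in the knock-in libraries and 8.11, 7.32 and 6.66 CPM in the wild-type libraries, 4.02-fold higher (2.01 ± 0.073, adjusted p = 2.9e-19). Cxcl1, a neutrophil chemokine, rose from 5.03, 4.76 and 4.98 to 22.2, 22.1 and 24.6 CPM (2.22 ± 0.1). Csf1, the macrophage growth factor, was at 53.5, 52 and 53.7 against 16.2, 14.6 and 11.8 CPM (1.89 ± 0.067), and Icam1, a leukocyte adhesion molecule, at 44.4, 40.9 and 42.2 against 17.3, 15.2 and 13.4 CPM (1.47 ± 0.066). All 4 separated the groups. For Ccl2, Csf1 and Icam1 both genotypes had lower levels than untreated cells, and the ratio between them was wider, with interactions of 0.53 (adjusted p = 0.000664), 0.58 (0.000126) and 0.45 (0.00141). Map3k8, a kinase of the pathway and the only member that fell (−0.32 ± 0.1), is named for that reason. Its call ended under total-count scaling and without knock-in replicate 1 or 3 or wild-type replicate 1. Of the 13 macrophage markers tested, 11 lay above 0 (median 0.38) and 5 passed as higher. With 1 lower, their share called was 46.2%, close to the 42.5% of all genes. The sum of these markers was lower, at 115 to 131 against 175 to 181 CPM. Nearly all of it came from Cd68, the only member that fell. The part of macrophages in the chemokine result was not tested, and neutrophil and lymphocyte markers were near 0 in both groups.

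Interferon-stimulated genes, which encode antiviral enzymes, GTPases and sensors, were higher in the treated knock-in. Of 62 tested, 47 were higher and none lower (75.8% called against 42.5% of all genes, median 0.7), and 16 rose by at least 2-fold. In untreated cells 6 were higher and 1 lower (median 0.18), against 2883 and 2918 of all 15664 genes. The interaction itself was called for 5 of the 62 members, Tgtp1, Oas3, Psme1, Ifi47 and Ly6e. That share is close to the 7.11% of all 15664 genes. The list's level in 1 wild-type library lay apart from the other treated wild-type libraries. Centred on each gene's mean over the 6 libraries, the list's median log2 level was 0.39, 0.35 and 0.37 in the knock-in and 0.10, −0.59 and −0.57 in the wild type. Without wild-type replicate 1 the list had 56 members higher (median 0.95), without replicate 2 36, and without replicate 3 38. Fitted on the 6 treated libraries alone, 26 passed. Oas3, an oligoadenylate synthetase, was at 5.46, 4.78 and 5.29 CPM in the knock-in libraries and 2.56, 1.36 and 1.41 CPM in the wild-type libraries, with wild-type replicate 1 between the groups (1.53 ± 0.16, adjusted p = 6.03e-09). Tgtp1, an interferon-inducible GTPase, was at 3.17, 3.65 and 3.55 CPM in the knock-in libraries and 1.41, 1.02 and 0.632 CPM in the wild-type libraries (1.74 ± 0.23, adjusted p = 2.04e-06). Neither difference passed without agonist (0.2, adjusted p = 0.446, and 0.03, 0.921), and their interactions were 1.33 ± 0.26, adjusted p = 0.000984 and 1.7 ± 0.31, adjusted p = 0.00114. Psme1, a proteasome activator subunit, was at 76, 71.4 and 75.2 against 49.1, 43 and 45 CPM (0.7 ± 0.052), and Ifit2, a translation inhibitor, rose to 13.2, 13.2 and 13.7 from 8.02, 6.84 and 5.88 CPM (0.95 ± 0.085). Isg15, a ubiquitin-like modifier (37.5, 32.9 and 35.6 against 25, 7.18 and 10.7 CPM, 1.29 ± 0.36), and Oasl2, another synthetase relative (16.4, 14.9 and 16 against 5.68, 2.31 and 2.6 CPM, 2.14 ± 0.31), were chosen after their values were seen, as well-known members with large rises.

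**Figure D4:**
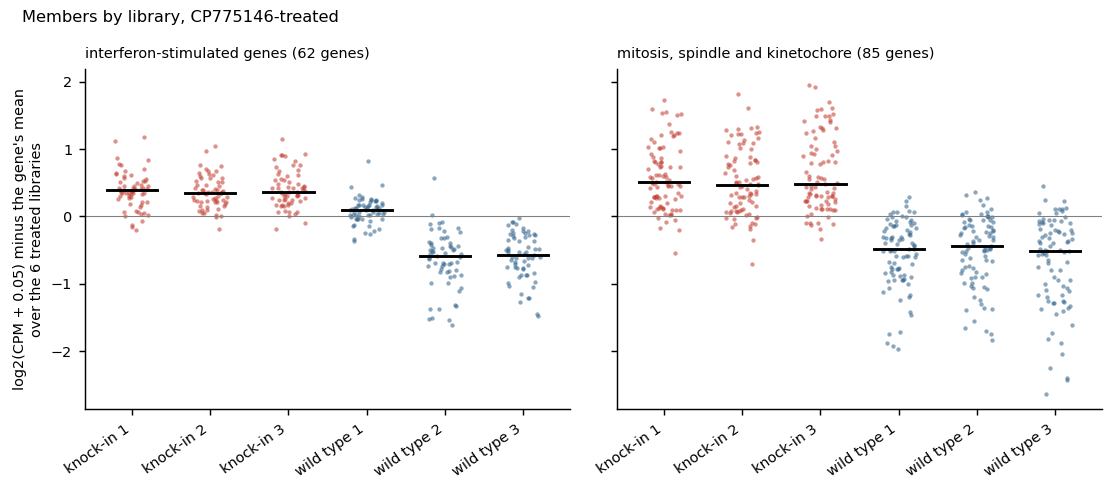
Log2(CPM + 0.05) of each member minus its mean over the 6 treated libraries (vertical axis), by library, for 62 interferon-stimulated genes (left) and 85 mitosis genes (right), with bars at the medians. For interferon-stimulated genes wild-type replicate 1 has a median of 0.10, between −0.59 and −0.57 of the other wild-type libraries and 0.35 to 0.39 of the knock-in, while for mitosis the wild-type libraries are alike.

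Interferon-stimulated promoters often hold the interferon response element, so the windows from 250 bases before to 50 bases after the start site (RefSeq, GRCm38.p6) were searched for GAAANNGAA or its reverse complement TTCNNTTTC, counting overlapping matches. Of the tested members, 48 matched the promoter table by symbol, with 59 promoters, and 29 of those promoters held a match (49.15%), against 2812 of 32851 promoters of all genes (8.56%). For tested genes of any kind it was 949 of 13270 promoters (7.15%). The list was made of genes known to be interferon-stimulated, so an excess over other promoters was set by that choice. It is no result about these libraries. Among the higher members 25 of 47 promoters (53.19%) and among those not called 4 of 12 (33.33%) held one. Counted by gene, the shares were closer, at 24 of 40 higher genes (60.0%) and 4 of only 8 genes not called (50.0%). Promoters of 4 of the genes described are printed because they show the range from 3 overlapping matches to none, with matches in capitals. Isg15 lies at chr4:156200769-156201068, minus strand, Oas3 at chr5:120777610-120777909, minus strand, Tgtp1 at chr11:48992197-48992496, minus strand, and Oasl2 at chr5:114896684-114896983, plus strand.
Isg15: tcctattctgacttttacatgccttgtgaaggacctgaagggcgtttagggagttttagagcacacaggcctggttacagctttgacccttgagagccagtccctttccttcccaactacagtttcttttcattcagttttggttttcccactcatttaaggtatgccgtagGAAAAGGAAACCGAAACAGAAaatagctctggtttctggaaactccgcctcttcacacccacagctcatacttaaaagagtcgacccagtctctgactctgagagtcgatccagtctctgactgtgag
Oas3: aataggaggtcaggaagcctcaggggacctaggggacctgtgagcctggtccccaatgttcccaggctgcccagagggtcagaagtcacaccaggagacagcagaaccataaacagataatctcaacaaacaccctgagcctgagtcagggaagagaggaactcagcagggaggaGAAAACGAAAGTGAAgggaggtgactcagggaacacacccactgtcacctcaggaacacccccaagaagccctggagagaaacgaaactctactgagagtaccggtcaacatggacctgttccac
Tgtp1: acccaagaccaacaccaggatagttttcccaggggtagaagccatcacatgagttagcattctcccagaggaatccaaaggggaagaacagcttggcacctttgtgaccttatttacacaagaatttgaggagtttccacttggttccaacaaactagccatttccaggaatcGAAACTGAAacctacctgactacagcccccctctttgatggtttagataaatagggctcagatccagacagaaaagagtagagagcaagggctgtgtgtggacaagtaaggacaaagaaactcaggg
Oasl2: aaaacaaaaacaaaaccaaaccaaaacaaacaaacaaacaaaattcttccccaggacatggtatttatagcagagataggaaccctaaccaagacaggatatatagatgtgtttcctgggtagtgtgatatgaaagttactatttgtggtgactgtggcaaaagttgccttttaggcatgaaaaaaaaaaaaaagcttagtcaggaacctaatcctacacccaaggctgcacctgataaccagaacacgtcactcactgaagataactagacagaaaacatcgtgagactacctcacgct
In Isg15 the first of 3 matches begins 78 bases before the start, in Oas3 the first of 2 begins 75 bases before, and in Tgtp1 the single match begins 77 bases before. Oasl2, with the largest rise of these 4, has no match in this window. A match describes letters only.

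Antigen presentation moved apart. Of 29 genes of MHC class I and antigen processing, 12 were higher and 9 lower (median 0.04). Psmb10, an immunoproteasome subunit, was at 30.6, 27.4 and 30.1 against 17.5, 13.4 and 13.8 CPM (0.98 ± 0.078, adjusted p = 1.43e-10), with wild-type replicate 1 again the highest of its group. H2-Q2, a class Ib heavy chain, fell to 8.79, 10.3 and 9.91 from 38.2, 41.9 and 42 CPM (−2.07 ± 0.069, adjusted p = 3.84e-20), and more so than without agonist (interaction −1.35 ± 0.13, adjusted p = 5.74e-08). H2-Q7 was lower as well (−0.59 ± 0.048). Heavy-chain genes of this cluster are close paralogs whose reads may be split unevenly.

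Secreted liver proteins were mostly lower in the knock-in. Acute-phase reactants had 6 higher and 27 lower of 39 (median −0.41), complement and coagulation factors 5 (Pros1, C1qa, Serpinf2, Serpind1 and F3) and 34 of 51 (median −0.34), and the Serpina1 and Serpina3 paralogs 2 (Serpina7 and Serpina10) and 16 of 21 (median −0.79). Hepatocyte markers as a sum were lower too, at 82318 to 85204 against 116702 to 120691 CPM, most of it from Alb. By member, 1 of these 8 markers was higher (Apob) and 6 were lower (median −0.4), and their part in these lists was not tested. Serpina1e, an alpha-1 antitrypsin paralog (chromosome 12, 103946931 to 103958975, minus strand), was at 58.6, 60 and 57 CPM in the knock-in libraries and 499.8, 514 and 526 CPM in the wild-type libraries, 8.77-fold lower on average, and no library overlapped (−3.13 ± 0.051, adjusted p = 2.54e-25). Untreated libraries showed the same gap (−3.21). Serpina3k was at 4201, 4401 and 4324 CPM in the knock-in libraries and 7167, 7303 and 7470 CPM in the wild-type libraries (−0.76 ± 0.036, adjusted p = 1.44e-16), and Serpina3n at 1104, 1086 and 1030 against 1913, 1800 and 1866 CPM (−0.79 ± 0.046). Hpx, the haem carrier haemopexin, was at 5232, 5207 and 5266 against 8215, 7504 and 8269 CPM (−0.61 ± 0.037). Fgg, the fibrinogen gamma chain, fell to 334, 356 and 333 from 558, 568 and 582 CPM (−0.74 ± 0.039), further than without agonist (interaction −0.35 ± 0.055, adjusted p = 7.72e-05).

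Ahsg, which encodes fetuin-A, was at 2079, 2303 and 2119 CPM in the knock-in libraries and 4646, 4479 and 4816 CPM in the wild-type libraries (−1.1 ± 0.04, adjusted p = 2.54e-19), and the gap was wider than in untreated cells (interaction −0.27 ± 0.056, adjusted p = 0.00209). Coagulation factor F10 was at 279, 298 and 287 against 622, 606 and 670.3 CPM (−1.14 ± 0.04). C8b, a chain of the membrane attack complex, fell similarly (−1.06 ± 0.045). A2m, an alpha-2-macroglobulin, was near the floor of expression, at 0.73, 0.429 and 0.563 against 3.65, 3.98 and 3.05 CPM (−2.63 ± 0.22).

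Genes of the differentiated hepatocyte had 11 higher and 32 lower of 57 (median −0.3, −0.21 untreated), and 17 and 28 under total-count scaling. Alb (chromosome 5, 90460897 to 90476602, plus strand) was at 64310, 66930 and 65630 CPM in the knock-in libraries and 105500, 106100 and 111500 CPM in the wild-type libraries (−0.71 ± 0.037, adjusted p = 8.63e-16). Mup3, a major urinary protein, was at 500.5, 532 and 529 CPM in the knock-in libraries and 1678, 1799 and 1840 CPM in the wild-type libraries (−1.77 ± 0.042, adjusted p = 1.8e-23). Mug1 and Pzp, protease inhibitors of the macroglobulin family, had log2 differences of −1.97 and −1.22, with Pzp falling from 2948, 3054 and 2945 to 1273, 1286 and 1272 CPM. Hnf4a, a regulator of many of them, did not pass, as described above. Some members rose, such as Bhmt, a methyl donor enzyme (31.8, 32.5 and 35.7 against 11.5, 13.1 and 13.1 CPM, 1.41 ± 0.074), and Glul, glutamine synthetase of pericentral cells (79.5, 67.1 and 70.4 against 48.1, 46.6 and 43.5 CPM, 0.65 ± 0.054, adjusted p = 5.69e-11).

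Amino acid catabolism counted 27 higher and 16 lower of 61 (median 0). Aass, which degrades lysine, was at 169, 164 and 162 CPM in the knock-in libraries and 47.5, 42.6 and 42.3 CPM in the wild-type libraries, 3.73-fold higher without overlap (1.9 ± 0.053, adjusted p = 1.61e-20). Kmo of the kynurenine route rose from 45.4, 45.5 and 44.3 to 92.8, 80.7 and 92.9 CPM (0.98 ± 0.051). Slc25a13, the aspartate-glutamate carrier, was lower at 247, 265 and 259 against 466, 509 and 539 CPM (−0.97 ± 0.044). Glycolysis, gluconeogenesis and glycogen genes were mainly lower, with 8 higher and 32 lower of 49 (median −0.32). Without knock-in replicate 1 or wild-type replicate 3, 5 were higher. Gys2, liver glycogen synthase, fell to 43.6, 42.3 and 41.8 from 72, 73.8 and 77.5 CPM (−0.81 ± 0.049, adjusted p = 3.75e-14). Pfkl, liver phosphofructokinase, was at 400.5, 403 and 411 CPM in the knock-in libraries and 616, 620.3 and 655 CPM in the wild-type libraries (−0.64 ± 0.039). Pdk1, a pyruvate dehydrogenase kinase, was lower (−0.81 ± 0.047), as was Slc37a4, the glucose 6-phosphate transporter (−0.63 ± 0.043).

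Housekeeping lists showed small differences. Of 77 respiratory chain genes 3 (Ndufb3, Ndufb6 and Ndufa4) were higher and 19 lower (median −0.05), turning to 28 and 3 under total-count scaling, and of 77 ribosomal protein genes 6 and 19 (median −0.03), turning to 21 and 4. Leaving out wild-type replicate 2 left no respiratory chain gene higher and 1 ribosomal gene higher, against 24 lower in each list. Without wild-type replicate 3 the respiratory chain had 6 higher and 12 lower, without knock-in replicate 2 or 3 it had 1 higher, and without knock-in replicate 3 the ribosomal list had 3 higher. Their shares called, 28.6% and 32.5%, lay below the 42.5% of all genes. Cox4i1, a cytochrome oxidase subunit, was at 317, 319.9 and 329.7 CPM in the knock-in libraries and 368, 362 and 391 CPM in the wild-type libraries (−0.21 ± 0.039), and Rpl4 was at 977, 1006 and 1020 against 1170, 1168 and 1203 CPM (−0.24 ± 0.035), and total-count scaling ended the call for Cox4i1 only. Stress response genes counted 11 higher and 17 lower of 48, and 26 and 13 under total-count scaling. Ddit4, an inhibitor of mTORC1, fell to 46.5, 51.7 and 49.7 from 96.1, 95.8 and 98 CPM (−0.97 ± 0.046), Eif2ak3, the PERK kinase, was lower (−0.65 ± 0.046), and Psat1 of serine synthesis was higher (0.55 ± 0.039).

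Cytoskeletal and adhesion genes leaned higher, with 31 higher and 7 lower of 52 (median 0.25). Plat, tissue plasminogen activator, was at 43.9, 45.6 and 45 CPM in the knock-in libraries and 9.39, 8.95 and 8.48 CPM in the wild-type libraries, 5.01-fold higher and without overlap (2.32 ± 0.066, adjusted p = 1.38e-21). Flnc, filamin C, rose from 6.14, 4.83 and 4.95 to 35.9, 37.1 and 33.5 CPM (2.74 ± 0.12), and Plaur, the urokinase receptor, from 23.6, 19.9 and 19.8 to 56, 57.1 and 53.4 CPM (1.39 ± 0.058). Anxa3, an annexin, was at 407, 403 and 414 CPM in the knock-in libraries and 194, 189 and 182 CPM in the wild-type libraries (1.11 ± 0.036). The simple-epithelial keratins Krt8 (0.49 ± 0.035) and Krt18 (0.51 ± 0.039) were abundant and higher, Krt8 at 2857, 2830 and 2849 against 2028, 2047 and 1997 CPM. Hippo pathway components and targets of its effectors YAP and TEAD, counted together, had 20 higher and 7 lower of 38 (median 0.25). Under total-count scaling they had 24 and 3. Ankrd1, a standard target, was at 50.2, 52.4 and 51 CPM in the knock-in libraries and 17.2, 15.6 and 14 CPM in the wild-type libraries (1.71 ± 0.068, adjusted p = 2.69e-17), and Ccn1 at 290.1, 272 and 287 against 170.5, 154 and 156 CPM (0.82 ± 0.042). Ptpn14, a YAP inhibitor that is itself a target, was lower at 20.6, 20.3 and 19.7 against 49.7, 48.2 and 47 CPM (−1.26 ± 0.053).

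Genes of the liver's zones differed by list. Periportal genes had 4 higher (Aldh1b1, Uroc1, Cps1 and Gldc) and 15 lower of 25 (median −0.4), and pericentral and Wnt targets 10 and 11 of 28 (median −0.11), turning to 10 and 7 under total-count scaling. Igf1, the growth hormone effector, was lower at 120.2, 126 and 122 CPM in the knock-in libraries and 213, 211 and 217 CPM in the wild-type libraries (−0.8 ± 0.038, adjusted p = 1.61e-16), with an interaction of −0.45 ± 0.054, adjusted p = 1.3e-06. Gulo, of vitamin C synthesis, fell to 74.3, 75.9 and 71.5 from 159.6, 149.6 and 172 CPM (−1.12 ± 0.047), and Oat was lower (−0.82 ± 0.05). Aldh1a1, a retinal dehydrogenase, was higher at 3294, 3246 and 3391 CPM in the knock-in libraries and 2200, 2373 and 2287 CPM in the wild-type libraries (0.53 ± 0.046, adjusted p = 2.23e-10), less so than without agonist (1.42).

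Retinoid genes leaned lower, with 6 higher and 16 lower of 32 (median −0.19). Tgm2, a transglutaminase and retinoic acid target, was at 3130, 3355 and 3163 CPM in the knock-in libraries and 7150, 7113 and 7373 CPM in the wild-type libraries (−1.17 ± 0.042, adjusted p = 2.54e-19), with 21.8% of its length overlapped by another gene. Rbp4, the retinol carrier, was at 1766, 1830 and 1799 against 2547, 2456 and 2669 CPM (−0.51 ± 0.037), and Bco1, which cleaves carotene, was lower (−0.65 ± 0.04). Glucocorticoid receptor targets had 5 higher (Tsc22d3, Dusp1, Angptl4, Agxt and Gadd45b) and 13 lower of 24, among them Mt2, a metallothionein, at 609.9, 672 and 602 against 1004, 1037 and 1026 CPM (−0.7 ± 0.045). Circadian genes had 2 higher (Nr1d1 and Noct) and 12 lower of 23, and 5 and 7 under total-count scaling, with 1 higher without knock-in replicate 1 or wild-type replicate 2. Nfil3 (−0.51 ± 0.044) and Ciart (−0.86 ± 0.11), both clock repressors, were lower. Growth factor, receptor and immediate early genes counted 26 higher and 22 lower of 63. Igfbp2, an IGF carrier, was at 70.5, 77.1 and 72.9 CPM in the knock-in libraries and 186, 173 and 195 CPM in the wild-type libraries (−1.33 ± 0.049, adjusted p = 1.39e-18), and Areg, an EGF receptor ligand, fell to 10.8, 12.2 and 11.1 from 26.4, 28.7 and 31 CPM (−1.33 ± 0.073). Iron and metal genes counted 14 and 15 of 34, and 15 and 13 under total-count scaling, with Slc30a10, a manganese exporter, lower (−1.25 ± 0.079). Oncofetal genes had 6 higher and 5 lower (Igf2r, Peg10, Cd24a, Tff3 and Prom1) of 24, and 10 and 4 under total-count scaling. The share called, 45.8%, was close to the 42.5% of all genes. Among the members Afp, alpha-fetoprotein, was higher at 17.4, 17.9 and 18.4 against 7.06, 9.16 and 9.56 CPM (1.06 ± 0.09). Tff3, a trefoil factor, was lower (−1.25 ± 0.066).

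The largest ratios belonged to genes of low level. Among genes with a mean of at least 1 CPM over the 6 treated libraries, the greatest rise was in Iqgap3 (chromosome 3, 88081971 to 88121048, plus strand), a scaffold protein tied to proliferation, at 3.11, 2.06 and 2.84 CPM in the knock-in libraries and 0.131, 0.204 and 0.223 CPM in the wild-type libraries. All wild-type libraries were near the floor, and the knock-in libraries clearly above it (3.83 ± 0.32, adjusted p = 7.33e-11). The next were Mki67, Sult2a1, Zfp57, a guardian of imprints (2.92 ± 0.24), Top2a and Fgfbp1, a carrier that frees fibroblast growth factors (2.9 ± 0.13). Cubn, an endocytic receptor (2.89 ± 0.22), Fgd3, an exchange factor for Cdc42, and Flnc were also among the 10. Fgd3 was the most abundant of them at 102, 99 and 98.8 CPM in the knock-in libraries and 16.3, 15 and 12.8 CPM in the wild-type libraries (2.76 ± 0.07, adjusted p = 2e-18).

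The greatest fall was in Elfn1, a synaptic adhesion protein, at 0.127, 0.0307 and 0.0844 CPM in the knock-in libraries and 1.61, 2.18 and 2.83 CPM in the wild-type libraries (−4.7 ± 0.38, adjusted p = 1.76e-11). Knock-in libraries lay at or near the floor. Tmod1, tropomodulin, followed at 0.127, 0.307 and 0.197 against 3.19, 4.8 and 3.53 CPM (−4.16 ± 0.26), with 32.6% of its length overlapped by another gene. Duox2, an oxidase, was near the floor in the same way (−3.4 ± 0.35). Cyp2s1, an extrahepatic-type P450, was at 4.41, 8.19 and 6.28 against 41.6, 61.6 and 51.5 CPM (−3.03 ± 0.23), and its wild-type libraries spread more than most. A1bg, which is female-biased in mouse liver (−2.96 ± 0.089), Angptl2, an angiopoietin-like protein (−2.85 ± 0.11), Flt1, a VEGF receptor (−2.81 ± 0.11), and Cyfip2, an actin regulator (−2.6 ± 0.18), were also among the 10, with Serpina1e and A2m. In absolute level, Alb lost most, followed by Tgm2, Serpina3k, Hpx, Ahsg and Apoe, and Apob, Ehhadh, Cd36, Krt18, Aldh1a1 and Krt8 gained most.

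Markers of other cells and of sex moved as follows. Macrophage markers had 5 higher (Clec4f, Cd5l, Vsig4, Lyz2 and C1qa) and 1 lower of 13 tested, the one that fell being the abundant Cd68 at 109.6, 118 and 103 against 186, 182 and 186 CPM (−0.75 ± 0.056), and that number higher fell to between 1 and 4 when single libraries were left out and to 1 with DESeq2. Endothelial markers had 1 higher (Stab1) and 4 lower (Pecam1, Stab2, Flt1 and Ptprb) of 13, with none higher without wild-type replicate 2 and 3 higher under total-count scaling, with Stab2, a scavenger receptor of sinusoids, at 21.4, 27.1 and 24.7 CPM in the knock-in libraries and 51.7, 52.1 and 54.5 CPM in the wild-type libraries (−1.11 ± 0.072, adjusted p = 7.96e-11). Stellate and fibroblast markers had 1 higher (Ecm1) and 3 lower (Reln, Col3a1 and Dcn) of 10, led by Reln at 62.8, 72 and 66.6 against 152, 189 and 163 CPM (−1.33 ± 0.099). Cholangiocyte markers had 3 higher (Krt19, Krt7 and Spp1) and 2 lower (Prom1 and Cldn4) of 8, with Spp1 higher (1.23 ± 0.092) and Cldn4 lower (−1.02 ± 0.061). Shares called were 46.2%, 38.5% and 40.0% for macrophage, endothelial and stellate markers, close to the 42.5% of all genes. For cholangiocyte markers the share was 62.5% of only 8. The part of these cell types in the gene lists was not tested. Male-biased liver genes had 3 higher (Mup20, Cyp7b1 and Selenbp2) and 8 lower of 13, and female-biased genes 9 and 5 (Cyp3a44, Cyp17a1, A1bg, Cyp2c69 and Cyp4a10) of 18. Shares called were 84.6% and 77.8%, against 42.5% of all genes. The female-biased list holds Acot3, Cyp4a10 and Cyp4a14, also counted as PPAR-alpha targets, so it does not read sex alone. Its sum in wild type, before TMM scaling, was 786 to 837 CPM untreated and 3583 to 3807 CPM treated. Every treated library held 48945 to 68385 Xist counts and at most 7 counts of any Y-linked marker.

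Genes close to the edited locus were counted separately. Of 14 tested genes within 2 Mb of Mtdh, 4 were higher and 4 lower (57.1% called against 42.5%, median −0.09). The higher ones were Sdc2, Laptm4b, Matn2 and Pop1, and the lower ones Cpq, Rida, Stk3 and Vps13b.

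Genes whose genotype difference changed most with the agonist fell on both sides. Slfn2, a regulator of immune quiescence, was at 2.16, 1.75 and 2.28 CPM in the knock-in libraries and 0.394, 0.34 and 0.223 CPM in the wild-type libraries, with a difference near 0 in untreated cells (−0.12, interaction 2.78 ± 0.54, adjusted p = 0.00117). Ptger3, a prostaglandin receptor, fell to 1.52, 2.12 and 1.83 from 6.01, 6.13 and 7.14 CPM (−1.81 ± 0.15) with an interaction of −2.65 ± 0.81, adjusted p = 0.0449, a call lost with the replicate block, with the 5 CPM filter and without any of 8 single libraries. Espn, an actin bundler, was at 3.71, 4.51 and 4.39 against 14.1, 20.5 and 17.6 CPM (−2.04 ± 0.11, interaction −1.42 ± 0.2, adjusted p = 2.3e-05). Signs were opposite in 88 genes that passed in both comparisons. Because the interaction is the difference of those comparisons, its call for all 88 was nearly fixed by that choice. Impa2, an inositol monophosphatase, was lower under agonist at 41.5, 42.7 and 43.6 CPM in the knock-in libraries and 73.4, 69.9 and 81.6 CPM in the wild-type libraries (−0.81 ± 0.064, adjusted p = 3.4e-10) and higher without (0.53). Tuba1a, an alpha-tubulin, was higher under agonist at 10.2, 9.05 and 9.23 CPM in the knock-in libraries and 6.08, 4.7 and 4.57 CPM in the wild-type libraries (0.89 ± 0.094, adjusted p = 4.96e-09) and lower without (−0.32). Glul changed sign in the same direction, from −0.2 to 0.65. Pde1b, a cyclic nucleotide phosphodiesterase, was at 3.27, 3.13 and 2.84 CPM in the knock-in libraries and 1.71, 1.16 and 1.3 CPM in the wild-type libraries with agonist and 0.0946, 0.366 and 0.369 against 0.696, 0.451 and 0.68 CPM without, so that the order of the genotypes turned without overlap.

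**Figure D5:**
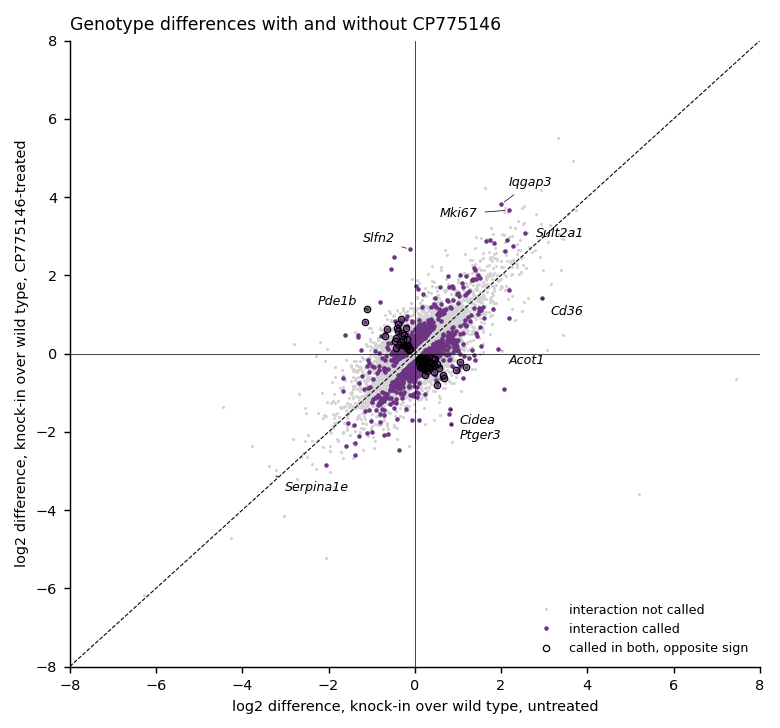
Log2 difference (knock-in over wild type) of each tested gene without agonist (horizontal) and with CP775146 (vertical). Purple points have an interaction at adjusted p below 0.05 (1113 genes), ringed points passed in both comparisons with opposite sign (88), and the dashed line marks equal differences. Cd36 and Acot1 lie far below the line, Mki67, Iqgap3 and Slfn2 above it.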

How the data were processed

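RNA from primary mouse hepatocytes was sequenced in 12 libraries, 3 in each of 4 groups by genotype and CP775146 treatment (TruSeq RNA kit, HiSeq3000, 2 rounds of sequencing, per the labels' protocols). The authors deposited raw counts per gene, and no normalization had been applied. Per the file headers, featureCounts 1.6.2 counted reads without strand, multi-mapping reads left out, on Ensembl gene models of GRCm38. The submitters' processing notes name featureCounts 1.4.6-p4, Subread, cutadapt 1.9, FastQC 0.11.2 and edgeR 3.18.1, so the 2 sources differ in the counter's version. Counting without strand cannot divide reads between overlapping genes, and leaving out multi-mapping reads lowers close paralogs. The labels set the micro sign of the dose in a symbol font.

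From these counts edgeR 4.0.16 (R 4.3.3) kept 15664 genes (minimum count 10, minimum total 15), scaled by TMM and fitted a robust quasi-likelihood model with 1 term per group over all 12 libraries, which share 1 estimate of spread. Contrasts were treated knock-in against treated wild type, the same untreated, and their difference (the interaction). The call threshold was an adjusted p of 0.05 (Benjamini-Hochberg). Alternatives were size factors of DESeq2 (RLE), total-count scaling, DESeq2 1.42.0, limma 3.58.1 voom with sample weights, all genes without the low-count filter, only genes with 5 CPM in 3 libraries, the replicate number as a block, the 6 treated libraries alone, a minimum change of 1.5-fold, an adjusted p of 0.01 and leaving out each library. No libraries of a group agreed within sampling noise, so none was counted as a duplicate. Counts of 37 mitochondrial genes were 0 throughout, and those genes were not used.

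The gene lists and members were chosen with earlier results of these data known. Genes were named by a rule, which gave 225 beside a few that are not reported here. It takes the 10 largest rises and falls by ratio among called, non-overlapping genes of at least 1 CPM on average (clone-like names left out), the 6 largest by CPM in each direction, up to 4 called members per list by adjusted p, the 8 largest interactions in each direction and 6 of opposite sign, and 20 receptors and targets fixed by name. Sequences come from the Ensembl transcript of Mtdh and from RefSeq promoters.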

Additional observations from a re-analysis of the deposited data

Results flagged for a closer look

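Genes whose genotype difference under CP775146 departed from the untreated difference by the interaction test were looked at again, limited to the 21 that the naming rule took for that reason. The values are log2 interactions, treated minus untreated, each past an adjusted p of 0.05 in edgeR's quasi-likelihood test. The positive ones included Iqgap3 at 1.81 and Mki67 at 1.49, although the mitosis list as a whole had 2 positive and 2 negative interactions of 85 and DNA replication 1 and 2 of 56. Interferon-related genes were too, with Slfn2 at 2.78, Tgtp1 at 1.7 and Oas3 at 1.33, and for these the wild-type libraries were not alike, since replicate 1 had the highest level of its group. Pde1b stood at 2.25, Serpina5, a protease inhibitor, at 1.29, Cubn at 1.24, Tuba1a at 1.21, Snn at 1.14 and Glul at 0.85.

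Negative interactions included fatty acid genes, with Cidea at −2.25, Acot1 at −1.82 and Cd36 at −1.52. Fbp2, also a PPAR-alpha target, was at −1.39. Among other genes Ptger3 was at −2.65, Tenm4, a teneurin, at −2.33, Tmem171 at −1.52, Espn at −1.42, Impa2 at −1.34 and Chrna2, a nicotinic receptor subunit, at −1.29. In these lists Ptger3, Tenm4, Cidea and Tmem171 were at or below 7.14 CPM in every treated library. Slfn2, Iqgap3, Pde1b, Tgtp1 and Oas3, with positive interactions, were below that level in every treated library too. Untreated Ptger3 stayed near the floor of 3 counts. The call of Ptger3 was lost with the 5 CPM filter, at −2.648, with the replicate block, at −2.646, and without any of 8 single libraries. Cubn lost its call without any of 6 single libraries, and Iqgap3 without untreated wild-type replicate 2, at 1.315. Another 73 named genes had an interaction called. Why any of these interactions arose was not tested.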

How the results depend on the processing

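The counts of called genes kept within 1.5 times of 3218 higher and 3447 lower with DESeq2's size factors, DESeq2, voom, no filter, the 5 CPM filter, the 6 treated libraries alone and each library left out, the last giving 2798 to 3190 higher and 2977 to 3130 lower, with 491 to 569 and 377 to 418 of them at 2-fold or more. Total-count scaling gave 5949 higher and 1867 lower, and 663 positive and 519 negative interactions in place of 435 and 678. The 5 CPM filter left 173 higher and 165 lower by at least 2-fold, with fewer genes tested, and a tested minimum of 1.5-fold gave 504 and 429. An adjusted p of 0.01 left 5021 genes. Of the 6665 genes, 5085 remained called under total-count scaling and 5905 with DESeq2. Interaction counts ran from 251 to 638 positive and 481 to 882 negative with single libraries left out, the positive ones falling to 251 without knock-in treated replicate 1, 270 without untreated knock-in replicate 1 and 271 without untreated knock-in replicate 2.

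The replicate block over 12 libraries gave 3202 higher and 3436 lower (510 and 401 by at least 2-fold), and on the 6 treated libraries 3478 and 3470. Same-numbered treated libraries of the genotypes had deviations correlated at 0.11, 0.09 and 0.11, not above 0.1 for every pair, so the numbers were not taken as pairing, although each treated library correlated best with its own number.

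Over 3576 values of named genes under 16 alternatives, 3424 kept direction and side of the threshold, 139 lost and 11 gained a call, and 2 reversed sign, neither of them called in the report. These were Pparg at 0.045 and Nr1h2 at 0.02 with total-count scaling. The cause was not tested. Depth limits calls at low level, where the median SE was 0.36 below 1 CPM and 0.04 at 100 CPM and over.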

Other observations

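Below the level used for naming lay wider gaps, of which Capn11, a calpain, was chosen here after its values were seen. It was at 0.0317, 0.0307 and 0 CPM in the knock-in libraries and 2.04, 1.4 and 1.78 CPM in the wild-type libraries, and it was as far apart without agonist, at 0.0631, 0 and 0 against 1.57, 2.07 and 2.0 CPM. In the knock-in libraries it stood below the floor of 3 counts.

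The share of genes called was much alike across the genome, from 38.6% on chromosome X to 47.1% on chromosome 8, with 44.8% on chromosome 15, which carries Mtdh.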
